A study of Homo sapiens with 6 samples.

Results

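The cytosolic ribosome is built from ribosomal RNA and a set of proteins named RPS for the small subunit and RPL for the large subunit. Genes for these proteins were followed here in HMLE cells, an immortalized line of human mammary epithelial cells. Members were taken by symbol as RPS or RPL followed by a number, alone or with A, X or L, together with the stalk proteins RPLP1 and RPLP2. This gave 72 of the 20046 genes with a symbol on the array, each read by its brightest probe. They comprised 25 small subunit genes, 43 large subunit genes and 4 paralogs whose symbols end in L. The symbols RPLP0 and RPSA, which the same rule names, were not analysed here.

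Total RNA of 6 conditions was hybridized to Illumina bead arrays. HMLE cells with a control vector (Vector), cells with ectopic Snail (Snail) and cells given TGF-β (TGFb, 1 ng/mL in the labels, where the study's culture methods name a higher dose) were each measured without and with 20 μM docosahexaenoic acid (DHA, Snail+DHA and TGFb+DHA). Snail, a transcriptional repressor, and TGF-β, a secreted cytokine, each induce an epithelial-mesenchymal transition (EMT), and DHA is an omega-3 fatty acid that the study used to stabilize lipid raft domains of the plasma membrane. Snail was delivered by a retroviral vector, and nothing in the labels says that any line was a single clone. The sample titles do not say whether the cells of the DHA array carried the control vector. A DHA difference in Vector cells means DHA minus Vector below, the arrays without an inducer.

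Each condition had 1 array and none was repeated, so no difference between 2 arrays has a replicate check. Less RNA per cell and fewer cells of a kind cannot be told apart in such bulk samples. Tests were made only as limma fits over all 6 arrays, or with some left out, in which the spread is how much a difference varied between conditions. Values are log2 signals after quantile normalization by the authors, which gave every array a median of 6.3 and a maximum of 14.86. A probe counted as above background at a log2 value over 6.353, a level that 45.5% of probes passed on each array. The Vector cells were epithelial by their markers, with 8 of 9 epithelial genes above background and a mean of 9.39. The Snail array had 6 of 9 and a mean of 7.13, while the TGFb array kept 8 of 9 and a mean of 8.86. The 7 mesenchymal markers averaged 7.49 on Vector, 10.5 on Snail and 8.16 on TGFb, and 2 of 5 leukocyte genes were above background on every array.

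Ribosomal proteins are made in large and balanced amounts, because a subunit lacking 1 of them is usually not finished. Their mRNAs are a classic case of translational control. Most begin with a C followed by a run of pyrimidines, the 5' terminal oligopyrimidine (TOP) tract, through which mTOR signaling sets how much of the mRNA is translated. An mRNA level therefore need not follow ribosome production, and only mRNA was measured here. Several members also act outside the ribosome: RPL5, RPL11, RPL23 and RPL26 bind MDM2, the ubiquitin ligase of p53.

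The start of the transcript is where this control lies, so the annotated starts of the members with the largest DHA differences and of 2 paralog pairs are shown. RefSeq promoter windows on GRCh38.p14 were found for 60 of the 72 members. Of these, 43 (71.7%) had a C at the annotated start followed by at least 4 bases that were each C or T, read on the strand of the gene. The same letters began 1404 of the 27305 genes in the table (5.14%), and 1429 of its 35116 windows (4.07%). Each line below runs 5' to 3' from 40 bases before the annotated start through the first 20 bases of the transcript, and capitals mark the unbroken run of C and T that holds the start.
RPL29: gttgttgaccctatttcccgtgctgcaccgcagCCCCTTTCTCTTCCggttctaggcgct
RPS7: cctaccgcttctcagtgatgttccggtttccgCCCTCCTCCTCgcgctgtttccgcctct
RPL36A: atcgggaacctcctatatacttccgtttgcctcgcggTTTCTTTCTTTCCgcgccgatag
RPL34: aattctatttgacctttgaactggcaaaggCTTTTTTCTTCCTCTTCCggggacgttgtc
RPS27: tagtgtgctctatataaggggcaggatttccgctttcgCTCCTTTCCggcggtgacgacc
RPS27L: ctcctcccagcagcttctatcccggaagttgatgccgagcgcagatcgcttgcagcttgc
RPL10: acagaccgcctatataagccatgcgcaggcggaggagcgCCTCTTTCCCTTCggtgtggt
RPL10L: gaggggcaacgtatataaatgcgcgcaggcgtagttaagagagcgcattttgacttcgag
These lie at chr3:51995876-51995935 (minus strand), chr2:3575220-3575279 (plus), chrX:101390971-101391030 (plus), chr4:108620536-108620595 (plus), chr1:153990722-153990781 (plus), chr15:63157458-63157517 (minus), chrX:154398337-154398396 (plus) and chr14:46651762-46651821 (minus). RPL29, RPL36A and RPL34 met the rule, while RPS7 had too short a run after its annotated start. RPS27 and RPL10 also met it, whereas RPS27L and RPL10L are annotated to start with a G and have no capitals. RPL39L and RPL3L had no entry.

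Most of the family sat at the top of the array's signal range and barely varied. Of the 72 members, 70 were above background on at least 1 array, and 51 of these were among the highest 1% of the 14455 genes tested by mean signal. The 43 members with a mean of 14 or more had a median range over the 6 arrays of 0.174 on the log2 scale, against 0.345 for the 49 other genes in that band. For the 13 members between 12 and 14 the median range was 0.375 against 0.655 for 345 other genes. Below 12 the order turned, with a median range of 1.09 for 14 members against 0.585 for 13991 other genes. That lowest band reaches down to the background level, and members and other genes were not matched for signal within any band. The dimmest members of the lowest band were RPL3L, at a mean of 6.42, and RPL28, at 8.30. Whether signals this close to the maximum narrow the range of the bright members was not tested.

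RPS15A, a small subunit protein, had the narrowest range of the members above background, 0.05. It read 14.65 on Vector, 14.61 on DHA, 14.62 on Snail, 14.61 on Snail+DHA, 14.60 on TGFb and 14.65 on TGFb+DHA. The stalk proteins, which recruit elongation factors to the ribosome, had ranges of 0.16 for RPLP1 and 0.14 for RPLP2. RPLP1 read 14.47 on Vector, 14.60 on DHA, 14.54 on Snail, 14.49 on Snail+DHA, 14.63 on TGFb and 14.57 on TGFb+DHA. RPLP2 read 14.64, 14.71, 14.63, 14.63, 14.76 and 14.67 on the same arrays, highest on TGFb as for RPLP1. RPL10, a large subunit protein close to the catalytic centre, was not well above background on any array, and its brighter probe lay between 6.08 and 6.28. That a gene of the core ribosome read so low is a measurement of this probe, and why it does so was not tested.

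**Figure D1:**
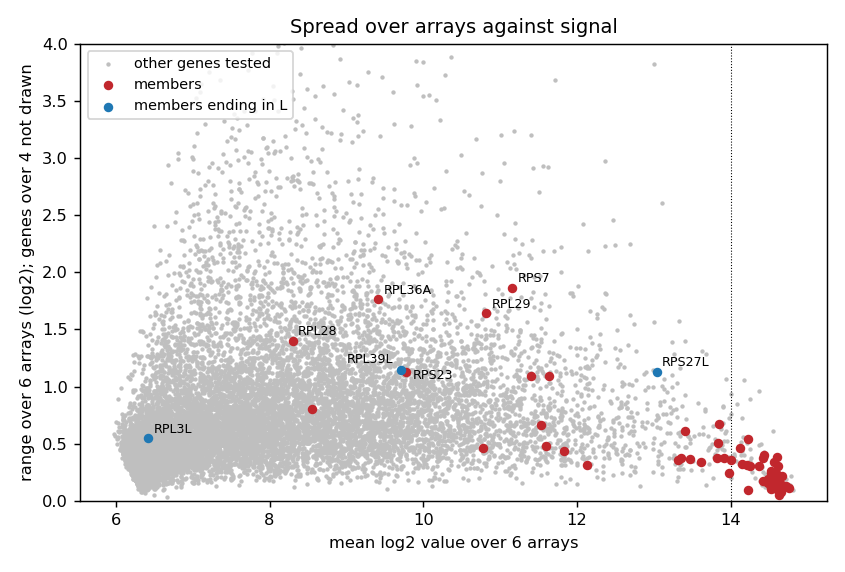
Range over the 6 arrays against mean log2 signal, 1 point a gene. Members above background are red, those ending in L blue and other genes grey, and the dotted line marks a mean of 14, above which 43 members had a median range of 0.174.

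No member passed an adjusted p of 0.05 in any of the 4 contrasts fitted with limma over all 14455 genes. These contrasts were DHA over the 3 cell states (0% of all genes called), Snail over both DHA states (7.26% called), TGF-β over both DHA states (0.0553% called), and Snail and TGFb against the 4 other arrays (0% called), which groups the arrays by the raft state that the study assigns to the conditions. At an unadjusted p under 0.05 there were 4 members for DHA (5.71%, against 12.2% of all genes), 2 for Snail (2.86% against 21.1%), 5 for TGF-β (7.14% against 5.78%) and 4 for the last contrast (5.71% against 7.26%). Their median differences were small: 0.04 for DHA (all genes -0.014), 0 for Snail (0.012), -0.072 for TGF-β (0.017) and -0.024 for Snail and TGFb against the rest (0.01). The lowest adjusted p of any member was 0.242, 0.0759, 0.793 and 0.67 in the same order.

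A small set of dimmer members had a like course over the arrays: RPL29, RPS7 and RPL36A read low on the Snail and TGFb arrays and higher where DHA was added to these inducers. RPL29, a large subunit protein also known as a heparin-binding protein, read 11.02 on Vector, 11.43 on DHA, 9.86 on Snail, 11.01 on Snail+DHA, 10.11 on TGFb and 11.51 on TGFb+DHA. RPS7, a small subunit protein that binds MDM2, read 11.04, 11.49, 10.72, 11.72, 10.06 and 11.92 on these arrays. RPL36A, a large subunit protein near the exit site for tRNA, read 9.49, 9.80, 8.51, 9.84, 8.56 and 10.27. For each of the 3 genes the Snail and TGFb values were the lowest of the 6 and did not overlap the other 4.

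In the contrast of Snail and TGFb with the other 4 arrays, RPL29 differed by -1.26 (SE 0.22, limma, adjusted p = 0.67), RPL36A by -1.32 (adjusted p = 0.67) and RPS7 by -1.16 (adjusted p = 0.67). RPL29 was the highest-ranked member there, in place 8 of all genes by p. Over the 3 cell states, the DHA difference was 0.98 for RPL29 (SE 0.22, limma, adjusted p = 0.242), 1.10 for RPS7 (adjusted p = 0.255) and 1.12 for RPL36A (adjusted p = 0.264). RPL34, a large subunit protein, followed with 0.53 (adjusted p = 0.359). RPL34 read 11.20 on Vector, 11.30 on DHA, 11.38 on Snail, 11.94 on Snail+DHA, 10.85 on TGFb and 11.77 on TGFb+DHA, so it was low on TGFb but not on Snail.

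The DHA difference was smaller in Vector cells, at 0.41 for RPL29, 0.45 for RPS7, 0.31 for RPL36A and 0.10 for RPL34. For RPL34 this rests on the brightest probe. Its second probe differed by 0.47 in Vector cells, 0.08 in Snail cells and 0.80 in TGF-β cells. When the Vector and DHA arrays were left out, limma on the remaining 4 arrays called 953 of 14455 genes (6.59%), of which 392 were higher with DHA (2.71% of all genes) and 561 lower. Among them were 4 members, each higher. They were RPL36A (1.52, SE 0.21, adjusted p = 0.0024), RPL29 (1.27, adjusted p = 0.00386), RPS7 (1.43, adjusted p = 0.00386) and RPL34 (0.74, adjusted p = 0.0326). That fit has 1 residual degree of freedom and leans on the spread shared across genes. The median difference of the 70 members in it was 0.019. When the TGF-β pair was left out instead, no member was called, and RPS7 differed by 0.72 (adjusted p = 0.829) and RPL34 by 0.33 (adjusted p = 0.895). Without the Snail pair no member was called either. How many of all genes were called without the TGF-β pair or without the Snail pair is not given here. The lack of a call there is therefore not a result about the members.

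**Figure D2:**
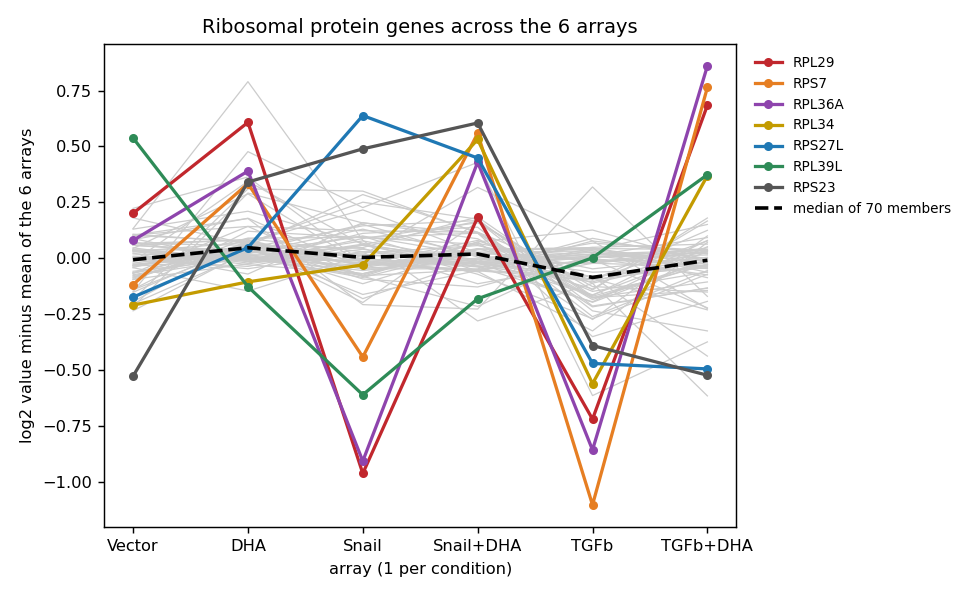
Log2 value of each member minus its mean over the 6 arrays (1 array per condition), for the 70 members above background on at least 1 array. Coloured lines are the named genes, grey lines the other members and the dashed line the median of the 70, which lies lowest on TGFb at -0.085.

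Across the family, the Snail and TGFb arrays were the 2 lowest for 9 of the 70 members (12.9%, against 8.25% of all genes). Besides RPL29, RPS7 and RPL36A these were RPL12, RPL21, RPL26, RPL30, RPS14 and RPS21, each with a range under 0.4. In no member were these 2 arrays the highest (9.14% of all genes). Single arrays also stood out. The TGFb array was the lowest for 28 members (40%, against 15.9% of all genes), and the DHA array the highest for 18 (25.7% against 13%) and the lowest for 1 (1.43% against 15.6%).

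With Snail alone, RPS23 and RPS27L read at least 1.5-fold higher than with Vector, and RPL29, RPL39L and RPL36A at least 1.5-fold lower. These 2 higher and 3 lower members stood beside 10.3% of all genes higher and 10.5% lower. The median of the 70 members was 0.014, against 0.015 for all genes. RPS23, a small subunit protein at the decoding centre, read 9.25 on Vector, 10.12 on DHA, 10.26 on Snail, 10.38 on Snail+DHA, 9.39 on TGFb and 9.25 on TGFb+DHA, so it was lower on Vector and both TGF-β arrays than on the other 3. Its difference for Snail minus Vector was 1.02, followed by RPS27L (0.81), RPL13 (0.48) and RPS9 (0.43). For RPL13 this is the brightest probe, and its other probe differed by -0.40. RPL29 (-1.16), RPL39L (-1.15), RPL36A (-0.99) and RPS7 (-0.32) were at the low end.

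With TGF-β alone, no member passed 1.5-fold higher (6.86% of all genes) and 3 passed it lower (4.16%): RPS7 (-0.98), RPL36A (-0.94) and RPL29 (-0.92). RPL39L was next at -0.54. At the high end RPS28 stood at 0.32, RPS20 at 0.24, RPL3L at 0.22 and RPLP1 at 0.16. The members leaned low, 46 of 70 below Vector with a median of -0.064 against 0.027 for all genes. Members with a mean signal of 14 or more had a median of -0.012, those from 12 to 14 of -0.173 with 1 of 13 above 0, and those below 12 of -0.328. RPL5, RPL11, RPL23 and RPL26, listed as MDM2 binders, each read below Vector, RPL11 by under 0.01, with a median of -0.285, and none of these 4 passed 1.5-fold. The 8 proteins around the exit of the nascent chain had a median of -0.087, with 7 of 8 lower. Of 16 genes mutated in Diamond-Blackfan anemia, a failure of red cell formation, 9 were lower with a median of -0.015, and RPS7 alone passed 1.5-fold.

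With DHA and no inducer, against Vector, RPS23 (0.87), RPL28 (0.66) and RPL22 (0.63) read at least 1.5-fold higher (2.65% of all genes) and RPL39L lower (-0.66, 3.88% of all genes). RPL13A was next at 0.51, and at the low end RPS3A, RPL8 and RPL24 stood between -0.12 and -0.10. Here 49 of 70 members were above Vector, with a median of 0.069 against -0.002. RPL22, a large subunit protein that also binds other RNAs, read 11.49 on Vector, 12.12 on DHA, 11.87 on Snail, 12.07 on Snail+DHA, 11.03 on TGFb and 11.27 on TGFb+DHA, lowest on both TGF-β arrays. The differences of Snail, TGFb and DHA from Vector share the Vector array.

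DHA in induced cells gave the 2 largest differences of the family in the 7 pairs, in RPS7 and RPL36A. In Snail cells RPL36A (1.33), RPL29 (1.14) and RPS7 (1.00) passed 1.5-fold higher (5.89% of all genes) and no member passed it lower (7.41%). RPL34 was next at 0.56, and RPL28 (-0.36), RPL7 (-0.19), RPS27L (-0.19) and RPL13 (-0.19) were lowest. The other probe of RPL13 differed by 0.78 in Snail cells. In TGF-β cells RPS7 (1.86), RPL36A (1.72), RPL29 (1.40) and RPL34 (0.93) passed it higher (7.57%). None passed it lower (11.1%), with RPL28 (-0.50), RPL37 (-0.36), RPL8 (-0.30) and RPL7 (-0.22) lowest. The other probe of RPL8 differed by 0.91 in TGF-β cells. RPS7 was thus 1.86 higher on TGFb+DHA than on TGFb, where its values were 11.92 and 10.06. The medians of all members stayed near 0, at -0.002 over 69 members in Snail cells and 0.045 in TGF-β cells.

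Compared within DHA-treated cells, Snail+DHA differed from DHA by 1.5-fold in RPL34 alone upward (0.64, 11.4% of all genes) and RPL28 alone downward (-1.07, 11.3%). RPL8 (0.46), RPS27L (0.40) and RPS23 (0.26) were also at the high end, and RPL29 (-0.42), RPL37 (-0.42) and RPL7A (-0.36) at the low end. TGFb+DHA against DHA had none higher (5.36%) and 5 lower (5.68%): RPL28 (-1.40), RPS23 (-0.86), RPL22 (-0.85), RPL37 (-0.80) and RPS4X (-0.67). RPL39L (0.50), RPL34 (0.47), RPL36A (0.47) and RPS7 (0.43) were highest there. These 2 pairs share the DHA array. RPL28, a large subunit protein, read 8.44 on Vector, 9.09 on DHA, 8.38 on Snail, 8.02 on Snail+DHA, 8.19 on TGFb and 7.69 on TGFb+DHA, highest on DHA and lowest on TGFb+DHA.

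The scale of the arrays touches these counts. With the non-normalized table set to a common median, RPS23, RPL28 and RPL22 no longer passed 1.5-fold for DHA minus Vector, which left 0 members higher and RPL39L lower. RPL28 then passed it lower for DHA in Snail cells, and RPL28 and RPL37 for DHA in TGF-β cells. For TGFb+DHA minus DHA the same 5 members passed lower, and RPL39L, RPL36A, RPL34 and RPS7 now passed higher. On that scale all genes past 1.5-fold split as 85 higher and 1535 lower for DHA minus Vector, 321 and 1805 for DHA in Snail cells, 547 and 2360 for DHA in TGF-β cells, 1057 and 1856 for Snail minus Vector, and 1062 and 524 for TGFb+DHA minus DHA, against 339 and 496, 753 and 948, 975 and 1437, 1330 and 1367, and 685 and 725 as deposited. The all-gene median shifted to -0.202, -0.182 and -0.169 in the 3 DHA pairs. Relative to that median the members lay 0.255, 0.118 and 0.211 higher, against 0.071, 0.008 and 0.065 as deposited.

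**Figure D3:**
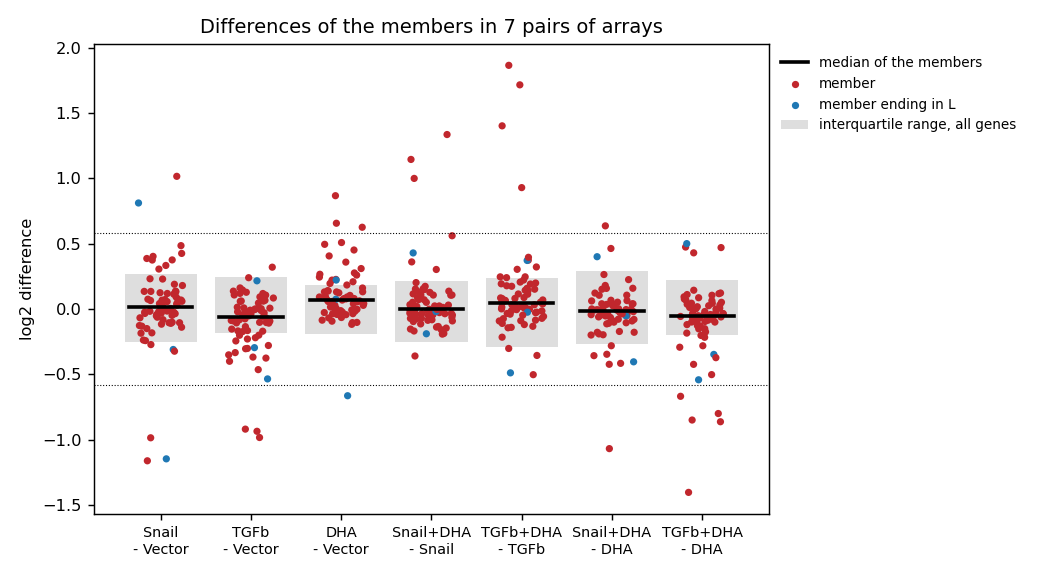
Log2 differences of the members in 7 pairs of arrays, 1 array each. Points are members (those ending in L in blue), thick bars their median, grey boxes the interquartile range of all genes compared and dotted lines 1.5-fold, and the highest point is RPS7 at 1.86 for TGFb+DHA minus TGFb.

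Of the 4 paralogs, RPS27L and RPL39L were above background on all 6 arrays, and no test compared them. RPS27L, a p53-induced relative of RPS27, read 12.86 on Vector, 13.09 on DHA, 13.68 on Snail, 13.49 on Snail+DHA, 12.57 on TGFb and 12.54 on TGFb+DHA. Both Snail arrays were the highest and both TGF-β arrays the lowest. Its Snail difference over both DHA states was 0.61 (SE 0.17, limma, adjusted p = 0.0759), which misses the threshold, and its TGF-β difference was -0.42. RPS27 itself lay between 14.55 and 14.69. A dimmer probe for RPS27L was above background on 3 arrays only.

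RPL39L, a relative of RPL39 that is enriched in testis, read 10.25 on Vector, 9.58 on DHA, 9.10 on Snail, 9.53 on Snail+DHA, 9.71 on TGFb and 10.08 on TGFb+DHA. Vector was the highest array and Snail the lowest. The Snail difference over both DHA states was -0.60 (limma, adjusted p = 0.317). Its second probe read 9.72, 9.09, 8.79, 9.25, 9.10 and 9.76 in the same order, with Snail lowest as well. RPL39 lay between 14.34 and 14.61, also lowest on Snail. RPL3L, the muscle relative of RPL3, was above background on 3 arrays, at 6.52 on Vector, 6.60 on DHA and 6.74 on TGFb. RPL3 read between 14.18 and 14.49. RPL10L, a testis relative of RPL10, was not well above background on any array (highest 6.24), like RPL10, so this pair gives no comparison.

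**Figure D4:**
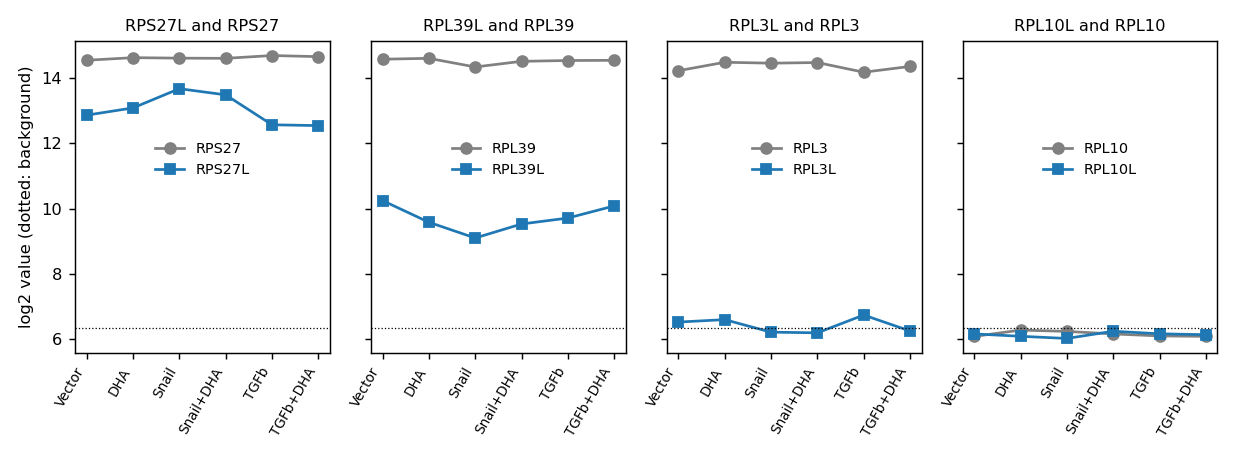
Log2 values of the 4 paralogs (blue) and the genes they resemble (grey) on the 6 arrays, 1 array per condition. The dotted line is the background level of 6.353, RPS27L peaks on Snail at 13.68, and levels of different probes are not comparable.

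Probes of 1 gene did not always follow each other. Of the 72 members, 35 had more than 1 probe and 31 had more than 1 above background on all 6 arrays. Over 217 combinations of these genes with a pair of arrays, probes of 1 gene differed by 1.5-fold or more in 41, which fell in 14 genes. Members had 43 dimmer probes above background on all 6 arrays. A dimmer probe had Snail and TGFb as its 2 lowest arrays and TGFb+DHA as its highest in 8 genes whose brightest probe did not. Snail and TGFb were the 2 lowest arrays in 8.25% of all genes, and the share of all probes with the full order was not counted. This order, looked for after the values were seen, is that of the brightest probe in 5 members. They are RPL29, RPS7 and RPL36A, and also RPL30 and RPS21 with ranges of only 0.17 and 0.38. The 8 were RPL6, RPS15, RPS24, RPS26, RPL13, RPL36, RPL41 and RPS6, with ranges from 2.18 for RPL6 to 0.19 for RPS6. The 4 with the widest range are given here.

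The dimmest probe of RPL6, a large subunit protein, read 9.80 on Vector, 10.17 on DHA, 9.13 on Snail, 10.55 on Snail+DHA, 8.68 on TGFb and 10.86 on TGFb+DHA, while its brightest had a range of 0.10. For RPS15 the dimmest probe read 10.31, 10.34, 9.08, 10.28, 9.62 and 10.90, against a range of 0.11 for the brightest. RPS24, another Diamond-Blackfan anemia gene, read 12.50, 12.69, 11.75, 12.69, 11.84 and 13.14 on the dimmer probe. The dimmer probe of RPS26 read 7.78, 7.60, 6.98, 7.93, 7.09 and 8.28. In each of the 4, the Snail and TGFb values lay below the other 4 values because the probes were picked for that order.

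By contrast, the second probes of RPL29 and RPS7 followed the first. RPL29 read 11.01, 11.37, 9.79, 10.84, 10.06 and 11.49 on its second probe, and RPS7 read 10.84, 11.50, 10.39, 11.60, 9.81 and 11.66. The second probe of RPL36A was above background on 2 arrays only. Probes differed in opposite directions by at least 0.3 each way in 6 combinations, in RPL13, RPL9, RPS15, RPL8 and RPL34. RPL34's second probe read 10.65, 11.12, 10.94, 11.02, 9.75 and 10.56, and was lower on TGFb+DHA than on DHA where the brighter probe was higher. Fitted as separate features, 116 member probes gave no call in any contrast, with 13 at an unadjusted p under 0.05 for Snail and TGFb against the rest (6.42% of all 28890 probes) and 16 for DHA (11.4%). Ribosomal protein genes have many processed pseudogenes, and whether a probe also reads another transcript was not tested.

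**Figure D5:**
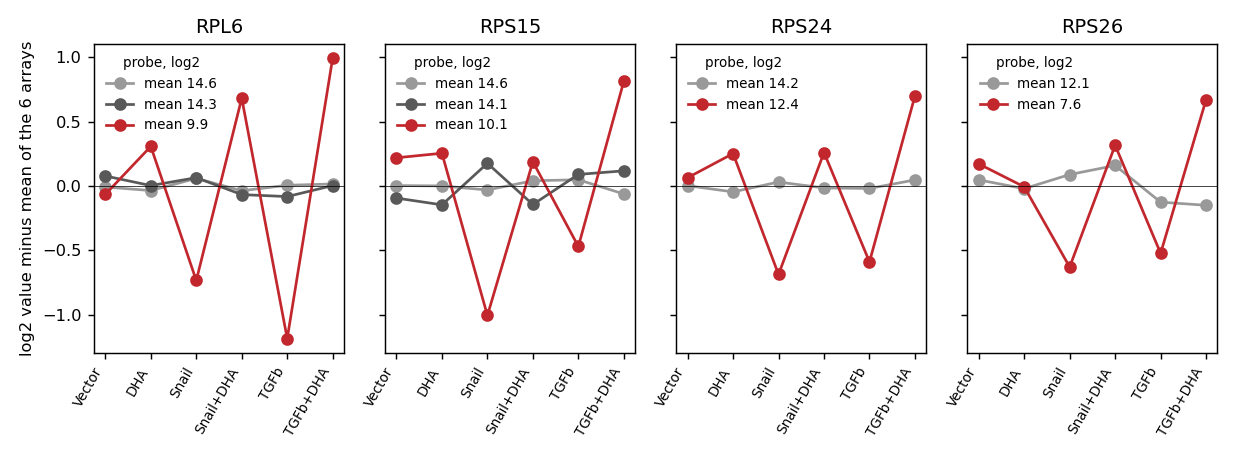
Log2 value minus its mean over the 6 arrays for each probe of RPL6, RPS15, RPS24 and RPS26, 1 array per condition. The dimmest probe of each gene is red, with its low points on the Snail and TGFb arrays, and the brightest probe has a range of at most 0.31.

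Neighbouring gene groups gave other values. Ribosome biogenesis genes, which encode factors that make and fold ribosomal RNA, had a median of -0.542 for Snail minus Vector, -0.162 for TGFb minus Vector, 0.289 for DHA minus Vector, 0.543 for DHA in Snail cells and 0.638 for DHA in TGF-β cells, over 50 to 51 genes. For DHA over the 3 cell states their median was 0.533, and limma called none. At an unadjusted p under 0.05 there were 34 of 51, beside 4 of 70 members and 12.2% of all genes. Without the Vector pair, 24 of 51 were called higher with DHA, and 10 of 76 mitochondrial ribosomal protein genes, beside 2.71% of all genes. Mitochondrial ribosomal protein genes had medians of -0.21, -0.23, -0.026, 0.176 and 0.401 in the same pairs, over 76 genes. The corresponding medians of the cytosolic members were 0.014, -0.064, 0.069, -0.002 and 0.045. With Snail, limma called 5 of 51 biogenesis genes lower (DKC1, NOP14, NOP16, RRP12 and DDX21) and 2 of 76 mitochondrial ones lower (MRPL41 and MRPS2). Of all 14455 genes, 593 were called lower with Snail. No test of a difference between the groups was made.

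Of 25 other genes on the array whose mRNAs carry a TOP tract, none was called in a contrast over all 6 arrays, and their DHA median was 0.053. Their medians were 0.091 for Snail minus Vector, 0.217 for DHA minus Vector, -0.074 for DHA in Snail cells and 0.072 for DHA in TGF-β cells. Against the DHA array they were -0.197 for Snail+DHA and -0.233 for TGFb+DHA. For TGFb minus Vector, 16 of 24 read lower and 7 higher, with a median of -0.057. EEF2, an elongation factor, (0.59) and PABPC1, which binds poly(A) tails, (0.54) were at the high end, and NAP1L1, a histone chaperone, (-0.47) and HNRNPA1, a splicing factor, (-0.33) at the low end. Of 16 translational control genes tested, MYC, a transcription factor that drives ribosome production, was called lower with Snail (-1.66, limma, adjusted p = 0.00919). In that contrast 7.26% of all genes were called, in either direction. MYC read 11.45 on Vector, 12.39 on DHA, 10.29 on Snail, 10.24 on Snail+DHA, 11.89 on TGFb and 11.98 on TGFb+DHA. EIF4EBP1, a translational repressor under mTOR, read 6.71, 6.84, 6.71, 7.61, 6.82 and 7.61, higher on both arrays that joined an inducer with DHA. Outside the rule, RPL22L1, which can take the place of RPL22, read 6.48, 7.17, 6.74, 7.24, 6.62 and 7.38, higher on each DHA array than on its untreated partner (DHA difference 0.65, limma, adjusted p = 0.242).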

How the data were processed

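Total RNA of 6 conditions of HMLE cells was measured on 1 array each. The authors' deposited log2 table had been summarized with IlluminaExpressionFileCreator and quantile normalized. The natural log of the deposited non-normalized intensity table matched the log2 signal in rank, with slopes on it from 0.962 to 1.04. It was taken as log2 signal for the alternatives, an assumption that the match in rank alone cannot check. Neither table used here gives detection p-values, so background was set from each array's own peak of dim probes: the mode plus the normal quantile for a one-sided 0.05 times the spread of the values below it. The array has 47323 probes, of which 30113 name 1 gene, 8 several and 17202 none. Each gene took its probe of highest mean, and 14455 genes above background on at least 1 array were tested. Differences were fitted with limma 3.58.1 in R 4.3.3 (intensity trend, Benjamini-Hochberg adjustment over all genes) as inducer plus DHA, with 2 residual degrees of freedom, and as Snail and TGFb against the rest, with 4. The scripts were tested on simulated data. Pairs of arrays had no test, and a fold of 1.5 was used as a rule of size.

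Genes were named by rule: each paralog and its parent, the 4 highest and 4 lowest members of each pair, members past the threshold in a fit, the stalk genes, the members with the widest and narrowest range, members whose probes disagreed in sign, and the ends of the other lists. Members and lists were chosen with earlier results of these data known. Alternatives were another background correction, another scaling, another choice of probe, another filter, a 2-fold rule and leaving out arrays.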

Additional observations from a re-analysis of the deposited data

Results flagged for a closer look

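RPL28 and RPL39L were picked out because their DHA difference had one sign in Vector cells and the other in both kinds of induced cells. RPL28 differed by 0.66 on the log2 scale for DHA minus Vector, by -0.36 for Snail+DHA minus Snail and by -0.50 for TGFb+DHA minus TGFb. RPL39L differed by -0.66, 0.43 and 0.37 in the same pairs. Each value comes from 1 array against 1 array, and the difference between the cell states was not tested.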

How the results depend on the processing

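Of the alternative values, 104 for single genes kept their direction and their side of the threshold, 4 gained a call and 0 turned sign. For the family, 74 counts and medians stayed close to the value reported, among them 3 medians near 0 whose sign turned: -0.021 in place of 0.014 for Snail minus Vector with the probe of highest variance, and 0.02 and 0.023 in place of -0.002 for DHA in Snail cells, with that probe and over members with a mean below 14. Without the pair of Vector arrays, 4 members were called for DHA in place of 0, with differences of 1.273 (RPL29), 1.432 (RPS7), 1.525 (RPL36A) and 0.744 (RPL34). Without the TGFb pair, RPS7 and RPL34 fell to 0.725 and 0.332 with no call. With a 2-fold rule in place of 1.5-fold, 3 members passed for Snail minus Vector, 0 for TGFb minus Vector and 0 for DHA minus Vector. For DHA in Snail cells 2 passed and for DHA in TGF-β cells 3. For Snail+DHA minus DHA 1 passed, and for TGFb+DHA minus DHA 1. A stricter rule cannot raise the count, and the share of all genes past 2-fold is not given here. With the non-normalized table set to a common median, 1 member (RPL39L, lower) passed for DHA minus Vector and 9 (4 higher and 5 lower) for TGFb+DHA minus DHA, and members minus all genes turned from -0.001 to 0.149 for Snail minus Vector and from -0.024 to 0.009 for Snail+DHA minus DHA. With the probe of highest variance, the median for TGFb minus Vector was -0.164. Over members with a mean below 14, an alternative added after the data were seen, the median was -0.22 for TGFb minus Vector, 0.158 for DHA in TGF-β cells and -0.185 for TGFb+DHA minus DHA. Causes were not tested. With 1 array a condition, the spread between replicates is unknown.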
